A study of Mus musculus with 6 samples.

Results

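The retinoic acid genes described here are Cyp26a1, Aldh1a2, Rara, Rarb, Rarg, Crabp1, Crabp2 and Stra6, 8 of the 28786 gene names on the array. They were chosen by name, as every non-control probe that the scanner files assign to one of these genes, which gave 10 probes of 41174. All 8 genes, through 9 of the 10 probes, stood well above background throughout the mES arrays, the EpiSC arrays or both, and entered the comparison. Expression was measured on 6 one-colour arrays, 3 of mouse embryonic stem cells (mES) and 3 of epiblast stem cells (EpiSC). ES cells are grown out of the blastocyst, whereas EpiSC come from the epiblast once the embryo has implanted. The mES samples were lines ESF122 (replicate 1), ESF175/1 (replicate 2) and a line that one label calls ESF58/2 and another ESF58/1 (replicate 3). The EpiSC samples were line EpiSC-5 (replicate 1) and line EpiSC-7 at passage 20 (replicate 2) and at passage 25 (replicate 3), so that the 3 samples came from 2 lines. All cultures grew on irradiated mouse embryonic fibroblasts (MEFs) in DMEM with knockout serum replacement, BME, NEAA and L-glutamine, mES with LIF added and EpiSC with FGF2. RNA from the feeders can therefore be part of every sample. Strain and sex are not given in the sources used here.

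Retinoic acid is made from vitamin A (retinol), which enters cells through the membrane receptor STRA6 and is oxidised first to retinaldehyde and then, by ALDH1A2 and related dehydrogenases, to retinoic acid. CRABP1 and CRABP2 bind it in the cytoplasm, CYP26A1 hydroxylates it and so inactivates it, and the nuclear receptors RARα, RARβ and RARγ, paired with RXR partners, bind DNA elements beside target genes. Rarb and Cyp26a1 are textbook targets of these receptors, and retinoic acid is widely used to drive the differentiation of ES cells.

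The classical element bound by the receptors is a direct repeat of a 6-base core with 5 bases between the copies (DR5). It was searched for here with the core AGGTCA, its variant AGTTCA, its variant GGGTCA or the further variant GGTTCA, both copies in the same orientation, on both strands, in windows of 300 bases (250 before and 50 after the gene's start) from RefSeq, build GRCm38.p6. Of the 8 genes, 7 matched an entry of that table, with 14 windows, and Crabp2 had no entry. A DR5 stood in 2 of the 14 windows, those of Cyp26a1 and Rarb, against 32 of all 32851 windows (0.0974%). Both are known targets among members chosen by name, so this share is not a test. The windows are shown because these are also the 2 retinoic acid genes whose signal rose in EpiSC. A link between the element and the rise was not tested. The capitals mark the DR5, 5′ to 3′ along the gene's strand. In the Cyp26a1 window (chr19:37697558-37697857, plus strand) it lay 32 to 16 bases before the start and was read on the opposite strand. In the Rarb window (chr14:16575427-16575726, minus strand) it lay 53 to 37 bases before the start and was read on the gene's own strand.
Cyp26a1: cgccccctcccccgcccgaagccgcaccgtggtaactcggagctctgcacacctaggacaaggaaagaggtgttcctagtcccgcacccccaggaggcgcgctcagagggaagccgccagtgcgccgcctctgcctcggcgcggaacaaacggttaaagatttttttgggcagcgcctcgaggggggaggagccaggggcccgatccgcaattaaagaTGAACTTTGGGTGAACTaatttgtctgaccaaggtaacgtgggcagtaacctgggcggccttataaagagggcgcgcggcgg
Rarb: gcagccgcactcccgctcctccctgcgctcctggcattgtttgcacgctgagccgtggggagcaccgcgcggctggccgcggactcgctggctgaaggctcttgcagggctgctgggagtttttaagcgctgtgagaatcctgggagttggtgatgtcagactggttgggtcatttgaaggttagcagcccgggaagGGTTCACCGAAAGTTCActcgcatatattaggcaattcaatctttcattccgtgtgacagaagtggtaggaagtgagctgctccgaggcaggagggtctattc
Direct repeats of the same cores with 2 bases or 1 base between them, present in 0.268% and 0.222% of all windows, were not found in the members' windows. A match of letters is a description of the window and was not measured as binding.

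**Figure D1:**
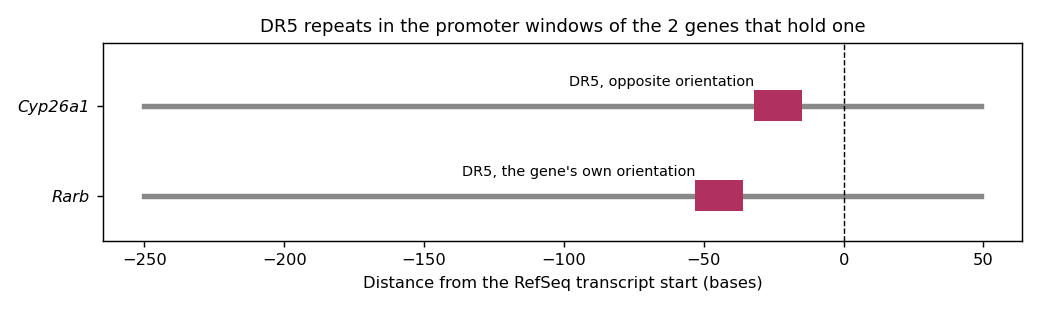
Position of the DR5 match in the promoter windows of Cyp26a1 and Rarb, as distance from the gene's start in bases, with the direction in which the element reads. The matches lie 32 to 16 and 53 to 37 bases before the start.

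The arrays were similar in overall brightness. The 75th percentile of the processed signal was 599 to 674 on the mES arrays and 660.2 to 935 on the EpiSC arrays, 66.3% to 75.4% of probes were well above background, and 0 spots were saturated. Lists of cell type markers followed the labels: 8 of 8 tested mES markers fell in EpiSC, 6 of 6 epiblast stem cell markers rose, and 0 of 3 core pluripotency genes passed the test. Neural ectoderm markers (2 higher and 1 lower of 8) and mesoderm markers (2 higher and 0 lower of 7) moved in part. Of 19 tested fibroblast markers, 2 rose (Acta2 and Tagln), 1 fell (Fn1) and 16 did not pass. Their level varied within the groups, the sum of the relative signals of 18 such genes being 90.8, 33.7 and 150.7 on the mES arrays and 139, 87.3 and 67.1 on the EpiSC arrays. Of 11 tested endoderm markers 5 rose and 0 fell, and the sum over 11 of them was 1.54 to 1.60 in mES and 138.5, 33.6 and 84.5 on EpiSC replicates 1 to 3. Fewer cells of a type and less RNA per cell cannot be told apart in these bulk samples.

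In the comparison of EpiSC with mES, 4 of the 8 retinoic acid genes passed the threshold, an adjusted p under 0.05 over all 20689 genes tested. Over all genes 26.3% passed. Cyp26a1 and Rarb rose (11.8% of all genes did), and Aldh1a2 and Rarg fell (14.5% of all genes did). Rara, Crabp1, Crabp2 and Stra6 did not pass. With 8 genes, nothing is drawn from a share of 4 in 8 against that background. The groups did not overlap for 5 members, as they did not for 48.5% of all genes. The members' median log2 fold change was -0.48, beside -0.11 over all genes. All values below are the signal of a probe divided by its array's 75th percentile, called the relative signal, and are comparable between arrays for 1 probe but not between probes. Adjusted p-values are limma's, errors are its standard errors with 3 arrays per group, and they measure only the spread between these samples, and 2 of the EpiSC samples share a line. A difference is EpiSC minus mES on the log2 scale.

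**Figure D2:**
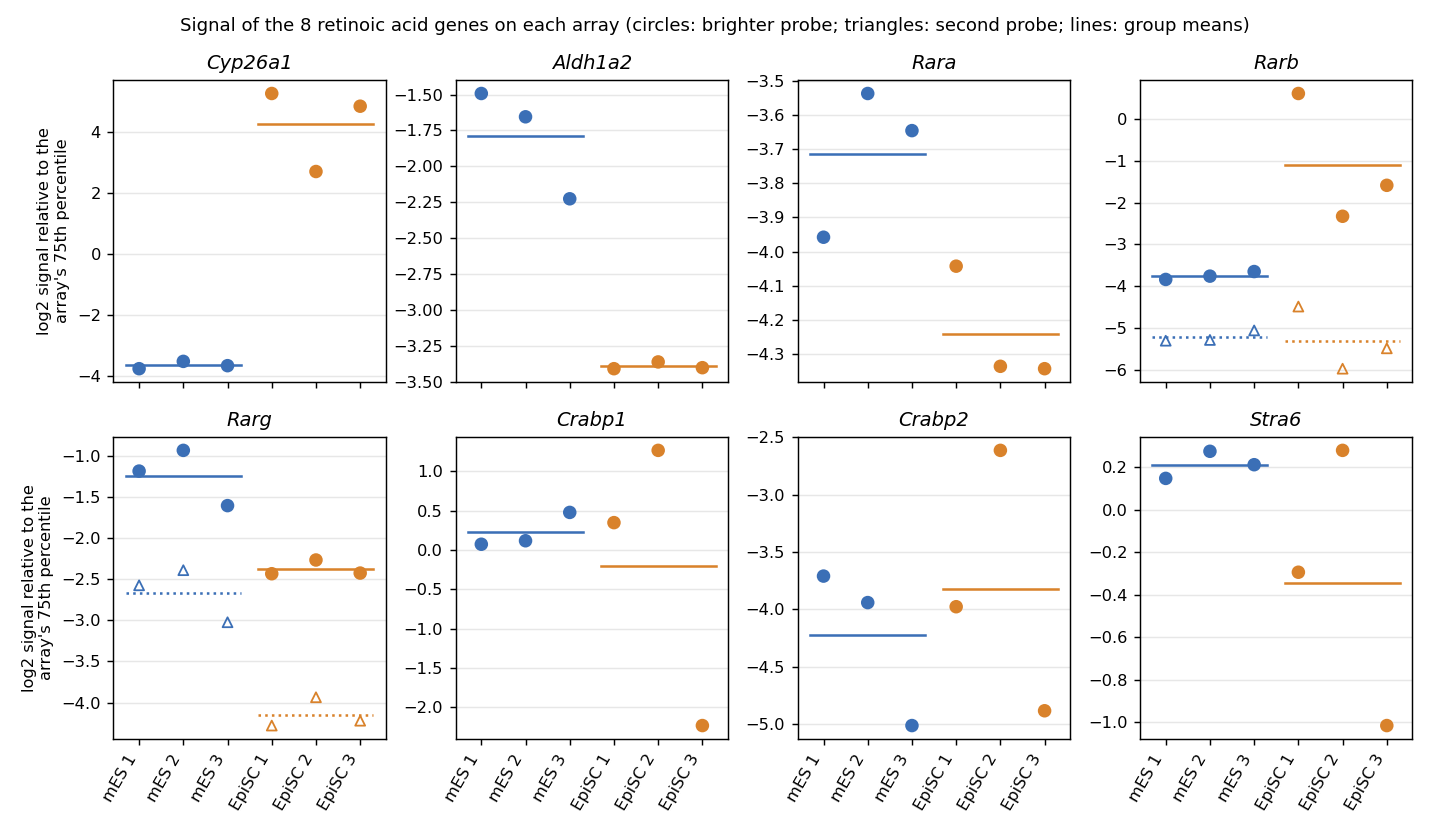
Relative signal (log axis) of each member probe on the 3 mES and 3 EpiSC arrays, with the mean of the log2 values of each group as a line. Cyp26a1 lies between 6.59 and 38.8 on the EpiSC arrays and below 0.09 on the mES arrays, while the values of Crabp1, Crabp2 and Stra6 overlap between the groups.

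Cyp26a1, the enzyme that breaks retinoic acid down, changed the most of the 8 genes. Its relative signal was 0.0745, 0.0880 and 0.0798 on mES replicates 1 to 3 and 38.8, 6.59 and 29.1 on EpiSC replicates 1 to 3. All 3 EpiSC arrays were far above all 3 mES arrays, and the lowest of them was the EpiSC-7 culture at passage 20. Against the mean of the mES arrays, EpiSC replicates 1, 2 and 3 were 482-fold, 81.8-fold and 361-fold higher. The mES signal was low but well above background on all 3 arrays. The log2 difference was 7.92 ± 0.64 (SE, n = 3 per group; 95% confidence interval 6.38 to 9.46), or 242-fold (83.2-fold to 706-fold), with limma adjusted p = 0.000835. Only 4 of the genes tested had a larger rise, Cyp26a1 being the 5th from the top. At array position 4 alone, with 2 arrays per group, the difference was 7.63, and at position 1, with 1 array per group, it was 8.51. Without EpiSC replicate 2 it was 8.70, and with normexp background correction 6.84, with the call kept in both. That correction was run with an offset of 50 added to each signal, which by itself makes the folds of dim genes smaller.

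Aldh1a2, which makes retinoic acid from retinaldehyde, fell. Its relative signal was 0.355, 0.318 and 0.214 on the mES arrays and 0.0943, 0.0975 and 0.0948 on the EpiSC arrays. The groups did not overlap, and the EpiSC arrays lay close together, with an SD of 0.025 on the log2 scale beside 0.38 in mES. The difference was -1.60 ± 0.23 (SE, n = 3 per group; 95% confidence interval -2.14 to -1.05), a 3.03-fold decrease (limma adjusted p = 0.00496). Within the positions it was -1.81 at position 4 and -1.17 at position 1. Without mES replicate 2 and EpiSC replicate 3, the 2 arrays lowest in fibroblast markers, the difference was -1.52. With 4 arrays left it did not pass (adjusted p = 0.0631).

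Stra6, the receptor through which retinol bound to its carrier enters cells, did not pass the test. Its relative signal was 1.11, 1.21 and 1.16 on the mES arrays and 0.816, 1.21 and 0.495 on the EpiSC arrays. The EpiSC-7 culture at passage 20 lay at the top of the mES values, and the same line at passage 25 lay below all other arrays. The difference was -0.56 ± 0.33 (SE, n = 3 per group; 95% confidence interval -1.35 to 0.23; limma adjusted p = 0.246).

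Of the 3 receptor genes Rarb rose, Rarg fell and Rara did not pass. Rarb, which is both a receptor gene and a retinoic acid target, was measured by 2 probes. The first, made of 10 spots on each array, had a relative signal of 0.0698, 0.0737 and 0.0796 on the mES arrays and 1.53, 0.199 and 0.333 on the EpiSC arrays. The groups did not overlap, but the EpiSC values were spread, line EpiSC-5 being far above both cultures of EpiSC-7. Against the mean of the mES arrays, EpiSC replicates 1 to 3 were 20.6-fold, 2.68-fold and 4.48-fold higher. The difference was 2.65 ± 0.71 (SE, n = 3 per group; 95% confidence interval 0.94 to 4.36), or 6.27-fold (1.92-fold to 20.5-fold), with limma adjusted p = 0.0374. Within the positions it was 2.94 at position 4 and 2.06 at position 1. The call did not hold without EpiSC replicate 3 (2.89, adjusted p = 0.0808), mES replicate 1 (2.60, adjusted p = 0.0931), mES replicate 2 (2.64, adjusted p = 0.0866) or mES replicate 3 (2.70, adjusted p = 0.0734), where the difference stayed about as large. Nor did it hold with normexp background correction (1.73, adjusted p = 0.0565), the position as a block (2.65, adjusted p = 0.0542), position 4 alone (2.94, adjusted p = 0.131) or without the 2 arrays lowest in fibroblast markers (2.89, adjusted p = 0.145). Without EpiSC replicate 1 the difference was 1.79 and without EpiSC replicate 2 it was 3.26, both still past the threshold.

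The 10 spots of this Rarb probe show how far the spread comes from the spots. On EpiSC replicate 1 they read 1375 to 1509 in units of processed signal, on EpiSC replicate 2 from 121.8 to 137.7 and on EpiSC replicate 3 from 247.7 to 275.4. The spots of the 3 EpiSC arrays did not overlap, and their SD within an array was 0.046 to 0.068 on the log2 scale, against 1.53 between the arrays. On the mES arrays the spots read 23.4 to 61.0 and scattered more, with SDs of 0.18 to 0.35. The second Rarb probe, designed to a transcript listed under the accession S92180, stood above background on EpiSC replicates 1 and 3 and on 0 of 3 mES arrays, and did not enter. It had a relative signal of 0.0253, 0.0256 and 0.0300 on the mES arrays and 0.0445, 0.0159 and 0.0222 on the EpiSC arrays. EpiSC replicate 1 was the highest at this probe too, while the other EpiSC arrays lay below all mES arrays. Over all probes, the lowest relative signal counted as well above background was 0.024 to 0.030 on the mES arrays and 0.016 to 0.018 on the EpiSC arrays. At this probe the counts of arrays above background therefore do not compare the groups.

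Rarg, the gene of the third receptor type, fell at both of its probes. At the first, which stands for the gene, the relative signal was 0.439, 0.523 and 0.329 on the mES arrays and 0.185, 0.208 and 0.186 on the EpiSC arrays. At the second it was 0.168, 0.191 and 0.123 on the mES arrays and 0.0515, 0.0653 and 0.0536 on the EpiSC arrays. At both probes every EpiSC array was below every mES array, and mES replicate 3 was the lowest of its group. The difference of the gene was -1.13 ± 0.21 (SE, n = 3 per group; 95% confidence interval -1.65 to -0.62), a 2.19-fold decrease (limma adjusted p = 0.0127). The second probe gave -1.48 ± 0.22 in the fit over all 29552 probes (limma adjusted p = 0.00592), in which 5 of the 9 member probes passed, as did 26.1% of all probes. Without the 2 arrays lowest in fibroblast markers the difference was -0.95, and with 4 arrays left it did not pass (adjusted p = 0.106).

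Rara, the gene of the most widely expressed receptor type, had a low signal in both groups. Its relative signal was 0.0643, 0.0862 and 0.0799 on the mES arrays and 0.0607, 0.0495 and 0.0492 on the EpiSC arrays. The groups did not overlap, although EpiSC replicate 1 came close to mES replicate 1. The difference was -0.53 ± 0.19 (SE, n = 3 per group; 95% confidence interval -0.99 to -0.07) and did not pass over all genes (limma adjusted p = 0.085).

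The 2 cellular retinoic acid binding protein genes did not pass, and their EpiSC arrays disagreed. Crabp1, whose protein holds retinoic acid in the cytoplasm, had a relative signal of 1.05, 1.09 and 1.39 on the mES arrays and 1.27, 2.41 and 0.213 on the EpiSC arrays. The EpiSC-7 culture was above all mES arrays at passage 20 and below all of them at passage 25. The difference was -0.43 ± 0.84 (SE, n = 3 per group; 95% confidence interval -2.45 to 1.60; limma adjusted p = 0.727), an interval that holds both a decrease and an increase of more than 2-fold. It was 0.71 at position 4 and -2.71 at position 1, where the EpiSC array is the passage 25 culture. Crabp2, whose protein carries retinoic acid to the receptors, had 0.0764, 0.0651 and 0.0310 on the mES arrays, the last of these not well above background, and 0.0635, 0.163 and 0.0339 on the EpiSC arrays. EpiSC replicate 2 was again the highest of all arrays, and the other EpiSC values lay among those of mES. The difference was 0.40 ± 0.62 (SE, n = 3 per group; 95% confidence interval -1.10 to 1.90; limma adjusted p = 0.661).

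**Figure D3:**
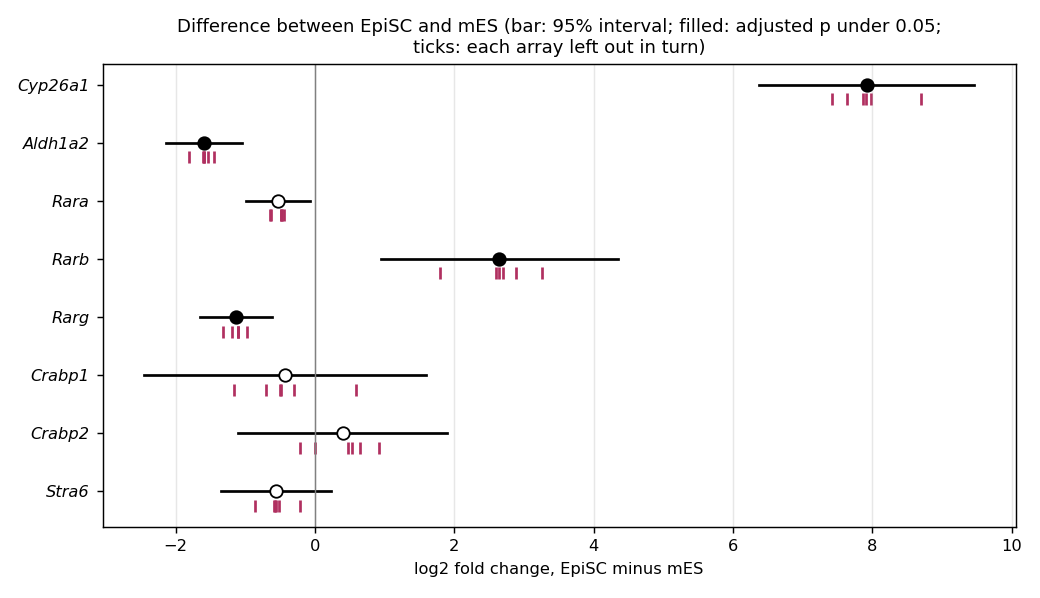
Log2 difference, EpiSC minus mES, of the 8 retinoic acid genes with 95% confidence intervals from limma. The intervals of Cyp26a1 (6.38 to 9.46) and Rarb (0.94 to 4.36) lie above 0, those of Aldh1a2 and Rarg below 0, and those of Crabp1, Crabp2 and Stra6 span 0. Rara's lies below 0 without passing over all genes.

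The spread among the EpiSC arrays was itself uneven between these genes. The EpiSC SD was above the mES SD for 5 of the 8 members, a count for which the share over all genes was not computed. Over all genes the median SD was 0.26 in mES and 0.25 in EpiSC on the log2 scale. The SD was above 1 for 6.71% of all genes in mES and for 3.76% in EpiSC. Among the members, Cyp26a1 (1.37), Rarb (1.53), Crabp1 (1.82) and Crabp2 (1.14) had an EpiSC SD above 1. EpiSC-7 was sampled at 2 passages, 1 array each, so that the difference has no replicate check and no test. Between passage 20 and passage 25 Crabp1 was 11.3-fold lower, Crabp2 4.82-fold lower and Stra6 2.45-fold lower. Cyp26a1 was 4.41-fold higher and Rarb 1.67-fold higher at passage 25. Of the 8 members 3 (Crabp1, Cyp26a1 and Crabp2) were at least 4-fold apart, beside 1.24% of the 20156 genes measured on both arrays. Aldh1a2, Rara and Rarg differed by 1.03-fold, 1.005-fold and 1.12-fold. Line EpiSC-5 was 5.93-fold above the mean of the EpiSC-7 arrays in Rarb, 2.81-fold in Cyp26a1 and 1.78-fold in Crabp1. In Cyp26a1, however, it was 1.34-fold above passage 25, and in Crabp1 it lay between the EpiSC-7 arrays. Passage, array position and the culture itself cannot be told apart, as passage 25 was also the only EpiSC array at position 1. EpiSC-5 lay on another slide than both EpiSC-7 arrays, so line and slide cannot be told apart either.

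**Figure D4:**
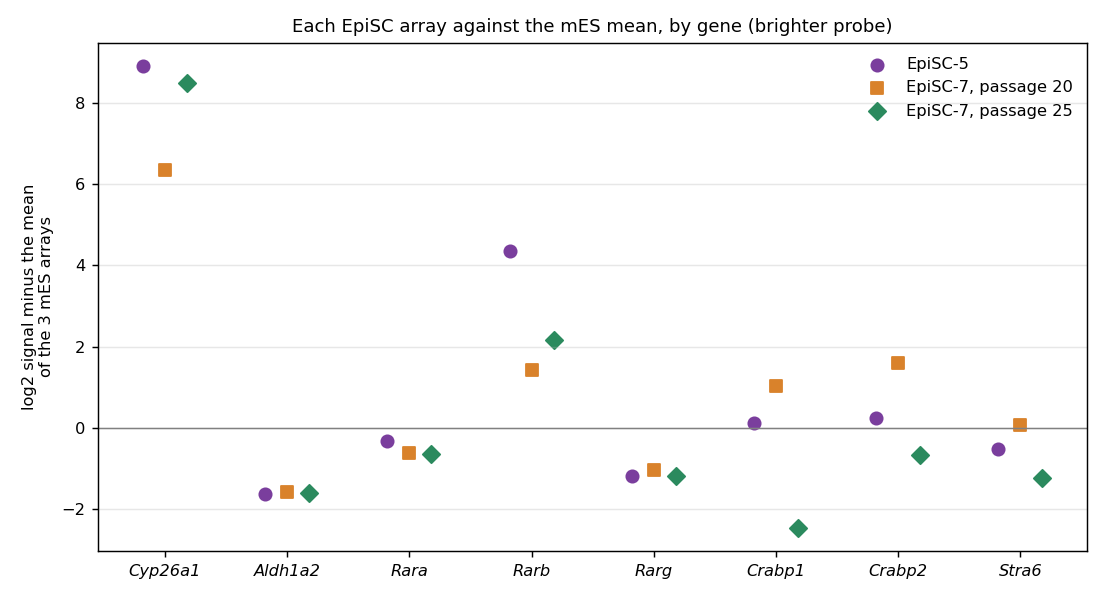
Log2 relative signal of the members on each EpiSC array, minus the mean of the 3 mES arrays. Rarb and Cyp26a1 are highest in EpiSC-5, while Crabp1, Crabp2 and Stra6 are lowest in EpiSC-7 at passage 25, where Crabp1 is at -2.46.

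The markers of other cells differed between the same arrays. The order of Cyp26a1 and of Rarb among the EpiSC arrays (EpiSC-5, then EpiSC-7 at passage 25, then at passage 20) was that of the summed endoderm markers (138.5, 84.5 and 33.6). Of the 11 genes in that sum 8 had this order, and the share of all genes with this order was not computed. Most of the sum came from Cer1 (86.7, 12.5 and 34.1 on EpiSC replicates 1 to 3) and Foxa2 (32.5, 17.97 and 44.3), and Foxa2 was highest at passage 25. As the median of log2 values centred on each gene's mean, the list stood at 1.29 in EpiSC-5 and did not separate passage 20 (0.12) from passage 25 (0.11). Cer1 had no mES array well above background, and Ttr had 0 of 6 arrays well above it. Crabp1, Crabp2 and Stra6 were lowest among the EpiSC arrays where the summed fibroblast markers were lowest (67.1, passage 25). Of the 18 genes in that sum 13 were lowest there among the EpiSC arrays, a count for which the share over all genes was not computed. The collagen gene Col1a1 (38.0, 21.3 and 2.34 on EpiSC replicates 1 to 3) was among the 13. The smooth muscle genes Tagln (27.3, 19.3 and 38.5) and Acta2 (13.7, 10.1 and 15.9) were instead highest there. In mES the fibroblast sum was lowest on replicate 2, where Crabp1 was 1.09, Crabp2 0.0651 and Stra6 1.21. On mES replicates 1 and 3 Crabp1 was 1.05 and 1.39, Crabp2 0.0764 and 0.0310, and Stra6 1.11 and 1.16. The part of these markers in the values of the members was not tested. Without the 2 arrays lowest in fibroblast markers 1 of the 8 members passed, Cyp26a1 (7.70, limma adjusted p = 0.0177), and the share of all genes that passed was 7.3% of 21199, with 4 arrays in the fit. In that fit the differences of Aldh1a2, Rarg and Rarb were -1.52, -0.95 and 2.89, beside -1.60, -1.13 and 2.65 with 6 arrays.

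**Figure D5:**
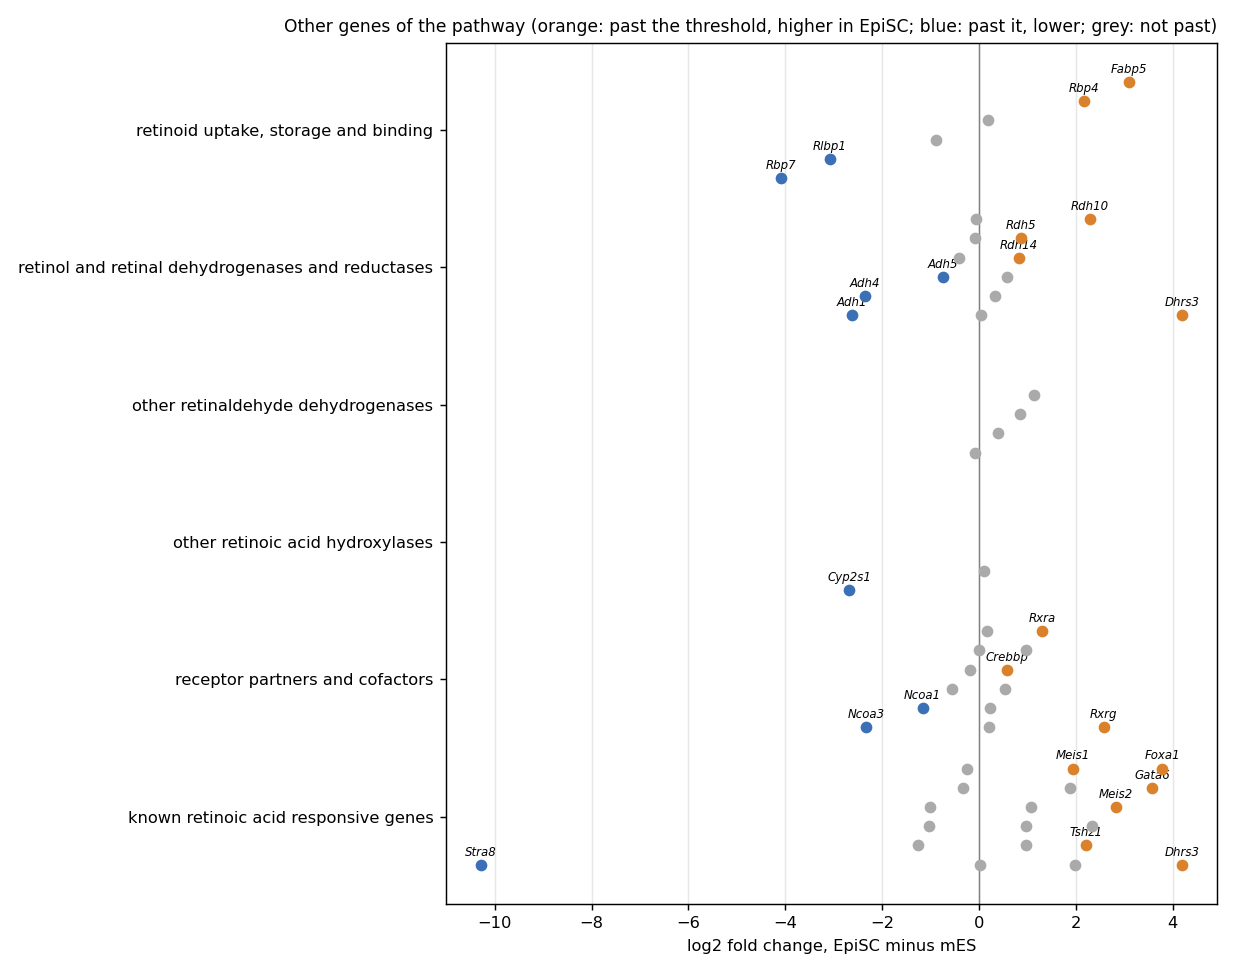
Log2 difference, EpiSC minus mES, of the other genes of the pathway, by list, with those past the threshold named and 2 genes not drawn. Dhrs3 and Rdh10 are among the genes to the right, and Stra8 lies furthest to the left, where its measured value is below background in EpiSC.

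Around the members, the other genes of retinoid metabolism moved in both directions. Over the 6 lists, with each gene counted once, 57 of 76 listed genes were tested, and 16 rose, 9 fell and 32 did not pass, with a median log2 difference of 0.23 beside -0.11 over all genes. The shares of all genes that rose and fell, 11.8% and 14.5%, stand beside these counts and those of each list. Of these 25 calls, 14 held whichever of the 6 arrays was omitted. Among retinol and retinaldehyde dehydrogenases and reductases, 4 of 13 tested genes rose and 3 fell (median 0.05). Dhrs3, which reduces retinaldehyde back to retinol and is a known retinoic acid target, had a relative signal of 0.407, 0.134 and 0.512 on the mES arrays and 4.67, 5.49 and 6.77 on the EpiSC arrays. Every EpiSC array was above every mES array, an 18.4-fold rise (4.20 ± 0.50, limma adjusted p = 0.00306; 3.61 without mES replicate 2). Rdh10, which makes retinaldehyde from retinol, rose 4.91-fold (2.30 ± 0.36, limma adjusted p = 0.0071), with 0.106 to 0.131 in mES and 0.431, 0.443 and 1.04 in EpiSC. Its other probe had a smaller difference of 1.32. Rdh5 (0.86, limma adjusted p = 0.0127) rose less, as did Rdh14 (0.83, limma adjusted p = 0.0269). Rdh14 kept its call after omitting EpiSC replicate 1 and lost it after omitting any other array. Its other probe had 0.42, and the mean of its probes did not pass (0.62, limma adjusted p = 0.0864). The alcohol dehydrogenase genes Adh4 (-2.36, limma adjusted p = 0.00411), Adh1 (-2.62, limma adjusted p = 0.0198) and Adh5 (-0.75, limma adjusted p = 0.0217) fell. Adh1 stood above background on 2 of the EpiSC arrays, and its call was lost after omitting mES replicate 1 (adjusted p = 0.056), 2 (adjusted p = 0.055) or 3 (-1.46, adjusted p = 0.0654), at position 4 alone (-1.24) and with no filter on dim probes (-1.05). Its difference was -1.94 without EpiSC replicate 3. Adh5 lost its call after omitting EpiSC replicate 1 or 3 or mES replicate 1 or 2, and with median scaling (adjusted p = 0.054) or quantile normalization (-0.46, adjusted p = 0.0524). None of the 4 other retinaldehyde dehydrogenase genes tested passed (median 0.62).

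Of the other retinoic acid hydroxylases, Cyp26b1, the close relative of Cyp26a1, did not pass. Its relative signal was 0.269, 0.113 and 0.652 on the mES arrays and 0.650, 0.569 and 0.0655 on the EpiSC arrays. The groups overlapped and the lowest value was that of passage 25 (0.10 ± 1.03, limma adjusted p = 0.953). Cyp2s1, a P450 reported to act on retinoic acid, fell 6.41-fold (-2.68 ± 0.24, limma adjusted p = 0.00109), with 1.76 to 3.09 in mES and 0.344 to 0.369 in EpiSC.

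Among 7 tested genes of retinoid uptake, storage and binding, 3 rose and 2 fell (median 0.19). Rbp4, the gene of the serum carrier that STRA6 recognises, rose (2.17 ± 0.62, limma adjusted p = 0.0454), but kept the call after omitting EpiSC replicate 2 and lost it after omitting any other array (1.499 without EpiSC replicate 1 and 2.76 without EpiSC replicate 2). Fabp5, a fatty acid binding protein gene, had no mES array well above background. By a bound, in the main processing, it was at least 4.73-fold higher in EpiSC. That bound takes, for each dim array, the lowest signal well above background or the probe's own, whichever is higher. The limma adjusted p of 0.000285 is that of the fit on the measured values, not of the bound. With normexp background correction the log2 difference of Fabp5 was 0.83, a smaller rise than the bound. Rbp7 (-4.09 ± 0.47, limma adjusted p = 0.0026) and Rlbp1 (-3.08 ± 0.18, limma adjusted p = 0.000254), genes of further retinoid-binding proteins, fell.

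Of 13 receptor partners and cofactors, 3 rose and 2 fell (median 0.21). The RXR genes Rxrg (2.57 ± 0.70, limma adjusted p = 0.0383) and Rxra (1.31 ± 0.38, limma adjusted p = 0.046) rose. Rxra's other probe had -1.52, and its call was kept after omitting mES replicate 3 and lost after omitting any other array. Rxrg lost its call without any one of the EpiSC arrays, and its difference was 1.76 without mES replicate 3 and 1.48 at position 4 alone. The coactivator genes Ncoa3 (-2.34 ± 0.22, limma adjusted p = 0.00143) and Ncoa1 (-1.16 ± 0.16, limma adjusted p = 0.00462) fell. Crebbp rose a little at the probe that stands for it (0.58, limma adjusted p = 0.0425) but lost its call whichever array was omitted. Its other probes had -0.08 and 0.03, and the mean of its probes did not pass (0.18, limma adjusted p = 0.458).

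Of 21 tested genes known to respond to retinoic acid, 8 rose, 1 fell and 12 did not pass (median 1.87). Besides Dhrs3, the endoderm transcription factor genes Foxa1 (3.78 ± 0.53, limma adjusted p = 0.00482) and Gata6 (3.57 ± 0.75, limma adjusted p = 0.0175) rose. In mES, Foxa1 stood well above background on 1 array only, so that the size of its rise depends on values near background, and with normexp background correction it was 1.83 (limma adjusted p = 0.014). Gata6 lost its call without EpiSC replicate 3, mES replicate 1 or mES replicate 2, its difference was 2.76 without EpiSC replicate 1 and 4.30 without EpiSC replicate 2, and 1 of its 3 probes had 0.05. With normexp background correction the differences of other dim genes were smaller too, as its offset of 50 alone brings about at low signals. They were 0.83 for Fabp5, -1.48 for Rlbp1, -2.68 for Rbp7, -1.15 for Adh4 and -0.95 for Adh1, each with its call kept. Meis1, at 0.61, lost its call. Meis1, Meis2 and Tshz1, named here after their values were seen, rose by 1.94, 2.83 and 2.20 on the log2 scale (limma adjusted p = 0.0315, 0.0241 and 0.0308). They kept their calls in 3, 2 and 1 of the 6 repeats that each omit an array. The other Meis1 probe had 0.71, and the mean of the Meis1 probes did not pass (1.325, limma adjusted p = 0.0605). The gene that fell was Stra8, which retinoic acid induces in germ cells. It had a relative signal of 8.41, 13.0 and 15.6 on the mES arrays and no EpiSC array well above background. By the bound described for Fabp5, in the main processing, it was at least 693-fold lower in EpiSC. The limma adjusted p of 1.69e-05 is that of the fit on the measured values, not of the bound. With normexp background correction the log2 difference of Stra8 was -7.16, a smaller fall than the bound, with the call kept.

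By the shape of their profiles over the 6 arrays, measured as the root mean square difference between log2 values centred on each gene's mean, the genes most like Cyp26a1 were Asb4 (0.48), 1500016L03Rik (0.58) and Dkk1 (0.77). Those most like Rarb were Cacna2d3 (0.26), Vwce (0.29) and Tmem178 (0.34). Vwce had 0.107, 0.108 and 0.0852 on the mES arrays and 1.34, 0.203 and 0.333 on the EpiSC arrays, with EpiSC-5 far above EpiSC-7 as for Rarb. 1500016L03Rik and Cacna2d3 had no mES array well above background. These likenesses are a description over 6 arrays that share the groups.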

How the data were processed

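Total RNA was extracted with TRIzol and labelled with Cy3, per the labels' protocols. The deposited intensity of each spot was written by Agilent Feature Extraction 9.1.3.1, per the file headers. The value table the authors deposited holds the same intensity, linear and uncentred (largest difference 0.00716 on the log2 scale), with column medians of 78.9, 84.9 and 68.7 for mES and 117, 80.25 and 82.95 for EpiSC.

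Control and outlier spots were left out, spots of a probe were averaged, and the log2 of the processed signal was scaled by each array's 75th percentile. A probe entered if well above background on every array of a group, and the entering probe with the highest mean stood for its gene. limma 3.58.1 in R 4.3.3 (lmFit, eBayes, two-sided, Benjamini-Hochberg over 20689 genes, threshold 0.05) compared the groups with no covariate. The fit had 4 residual and 2.47 prior degrees of freedom. It was also run on simulated arrays with independent noise, which lack the shared EpiSC-7 line and the slides and so cannot test their effect. Of 41174 probes, 22951 were named by accession through RefSeq (GRCm38.p6) and 18223 kept the file's name. The array's genome build is not stated in these sources. The number of arrays limits the precision.

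The members and the lists were chosen with earlier results of these data known. Named genes were the 8 members, up to 4 genes past the threshold per direction and pathway list, and the 3 genes most like each of the 2 members with the widest range. The values of 2 pathway genes are not reported here, although the counts include them. The lists were retinoid uptake, storage and binding, dehydrogenases and reductases, other retinaldehyde dehydrogenases, other hydroxylases, receptor partners and cofactors, and responsive genes, plus markers of fibroblasts, mES, EpiSC, pluripotency, endoderm, neural ectoderm and mesoderm. Slides each held 1 group, so slide and group cannot be told apart, and the fit with the slide as a random block does not separate them. Replicate 3 of each group lay at position 1 and the others at position 4. Alternatives covered background correction (normexp with an offset of 50), normalization, filters, probe choice, slide, position and each array left out.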

Additional observations from a re-analysis of the deposited data

How the results depend on the processing

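Cyp26a1, Aldh1a2 and Rarg kept direction and call under all 18 alternative settings listed for each (log2 differences of 6.84 to 8.70, -1.81 to -1.16 and -1.31 to -0.92). Rarb lost its call under 7 of the 18 (1.73 to 3.26, adjusted p 0.0126 to 0.131), and the cause was not tested. The count of members past the threshold was 3 to 6 under these alternatives and 3 to 4 with 1 array left out, and 1 once both arrays low in fibroblast markers were omitted, a fit with fewer samples that was chosen after seeing the data. With the slide as a random block 6 passed, Rara (adjusted p = 0.00995) and Stra6 (adjusted p = 0.0328) being added, but the fitted correlation was -0.677 and each slide held 1 group. Of 9 member probes 4 to 5 passed with 1 array left out. Over all genes the count of 5436 became 8712 with no filter on dim probes, 2686 with only arrays at position 4, 11785 with the slide as a random block, 1548 without the 2 arrays low in fibroblast markers, and 2945 to 4957 with 1 array left out, the lowest being without EpiSC replicate 3. Signs turned for Crabp1 with only position 4 (0.71), after omitting EpiSC replicate 3 (0.58) or both arrays with few fibroblast transcripts (0.53), its range with 1 array left out being -1.17 to 0.58, for Crabp2 without EpiSC replicate 2 (-0.21, range -0.21 to 0.93) and for Rxra as the mean of its probes (-0.11). Crabp2 has no value where a probe must exceed background on each of the 6 arrays. No paired analysis was possible because replicates were numbered by deposit order, which links no mES sample to an EpiSC sample. Signals near background, as for Rara, Crabp2 and the mES values of Cyp26a1 and Rarb, limit how well folds can be measured.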

Other observations

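A DR5 of the searched cores stood in the promoter window of 31 of 27025 genes of the RefSeq table. Of these 31 genes 5 were tested on the arrays. Cyp26a1 and Rarb rose, Blvrb, the gene of a biliverdin reductase, fell (-1.24 ± 0.28, limma adjusted p = 0.0213), and the globin gene Hbb-y (-0.30, limma adjusted p = 0.248) and the cytokine gene Tnfsf13b (-0.14, limma adjusted p = 0.834) did not pass. The other 26 were not tested. With 5 genes these are values only, and the last 3 were named after they were seen.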
